A study of Rattus norvegicus with 24 samples.

Results

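Expression of 10 genes around the mTOR kinase was examined in the medial gastrocnemius muscle of 24 rats. The genes were picked by symbol, and all 10 were among the 10851 genes of the count table. They are the inhibitors Ddit4 (also called Redd1), Ddit4l (Redd2), Sesn1, Sesn2, Sesn3 and Deptor, the kinase Mtor, its scaffold Rptor, and the paired suppressors Tsc1 and Tsc2. They were chosen with the difference in Ddit4 between monocrotaline and saline rats already known, so their values in that comparison are a description and carry no p-value. The animals were male Wistar rats in 4 groups of 6, and each library came from the left medial gastrocnemius of a single rat. Sed and Ex rats received a saline injection, whereas CC-Sed and CC-Ex rats received monocrotaline, a plant alkaloid that raises pressure in the lung circulation and leads to right heart failure and cardiac cachexia (CC), the loss of body and muscle mass. Ex and CC-Ex rats were trained on a treadmill during the experiment, and Sed and CC-Sed rats were not. Rats of all groups ran to exhaustion in a treadmill test before and after the training period. Monocrotaline rats that died or showed no right ventricular hypertrophy were excluded by the study, so the CC groups hold survivors that met this criterion. Age at injection was not given in the sources used here.

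mTOR is a protein kinase that, bound to raptor (Rptor) in mTOR complex 1, stimulates protein synthesis and restrains autophagy, and muscle growth depends on it. The small GTPase Rheb switches the complex on, and the complex of Tsc1 and Tsc2 switches Rheb off. Ddit4 and Ddit4l relieve the restraint on that suppressor complex, the sestrins lower amino-acid signalling to mTOR complex 1 by binding the GATOR2 complex, and Deptor binds mTOR itself. Ddit4 is known as a stress and glucocorticoid response gene of skeletal muscle.

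Promoters of the 3 inhibitors that met the criteria for a differentially expressed gene (DEG) in a monocrotaline comparison are shown so that their sequences can be set beside their levels. Each run is the 250 bases before the RefSeq start, read 5′ to 3′ on the strand of the gene, from the GRCr8 assembly at chr20:28437038-28437287 on the minus strand for Ddit4, chr2:228801457-228801706 on the plus strand for Ddit4l and chr20:46948469-46948718 on the plus strand for Sesn1. Capitals mark CCAAT on either strand and TATAAA.
Ddit4: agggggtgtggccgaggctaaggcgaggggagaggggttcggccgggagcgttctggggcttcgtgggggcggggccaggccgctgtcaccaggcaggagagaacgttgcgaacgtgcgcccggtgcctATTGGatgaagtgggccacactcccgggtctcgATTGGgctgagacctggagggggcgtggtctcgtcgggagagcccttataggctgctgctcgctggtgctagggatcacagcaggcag
Ddit4l: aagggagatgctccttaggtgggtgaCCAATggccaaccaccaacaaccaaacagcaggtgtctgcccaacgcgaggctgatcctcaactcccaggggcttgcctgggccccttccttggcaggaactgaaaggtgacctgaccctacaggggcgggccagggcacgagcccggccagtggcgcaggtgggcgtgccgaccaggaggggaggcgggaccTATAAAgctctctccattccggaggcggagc
Sesn1: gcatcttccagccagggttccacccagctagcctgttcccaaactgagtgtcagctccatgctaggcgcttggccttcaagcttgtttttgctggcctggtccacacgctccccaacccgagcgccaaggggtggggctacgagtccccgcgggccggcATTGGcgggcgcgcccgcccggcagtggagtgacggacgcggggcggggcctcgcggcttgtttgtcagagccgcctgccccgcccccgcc
RefSeq promoters were found for 8 of the 10 genes. CCAAT occurred in 6 of these 8 (Ddit4, Ddit4l, Mtor, Sesn1, Sesn2 and Sesn3) and in 34% of 33469 rat promoters searched over the same length. In Ddit4 it began 121 and 88 bases before the start, in Ddit4l 224 and in Sesn1 91. TATAAA, held by 12.9% of promoters, was found only in Ddit4l among the 8 genes, 31 bases before its start. CCAAT and TATAAA were chosen after the sequences were seen. Searched on both strands, the FoxO element TGTTTAC (3.21% of all promoters), the palindromic glucocorticoid response element (0.012%), its 6-base arm AGAACA (17.5%), the E-box CACGTG (5.59%) and the amino-acid response element TGATGNAA (3.4%) were in none of the 8 windows, which says only that these letters are not there.

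Total counts lay between 37816239 and 50350554 per rat, so 1 count was worth at most 0.0264 CPM (the library-scaled read count used throughout) before TMM scaling. The lowest count of Ddit4 in any rat was 295. CPM were scaled by the trimmed mean of M-values (TMM) and are not per length, so levels of different genes were not compared. The first principal component (PC1) of all genes put CC-Ex replicate 5 apart, at 96.5 units against 51.7 for the next highest rat. Ex vs. CC-Ex values of the 10 genes that moved by over 1.5 times without it are given both ways. Log2FC of other genes are given with all rats only, so their dependence on this rat is not shown. Skeletal muscle markers were abundant, summing to between 104333 and 244670 CPM. Summed fibroblast markers had medians of 1299 and 1662 CPM in saline rats (sedentary, exercised) and 638 and 386 CPM in monocrotaline rats, and blood markers medians of 115 and 151 against 119 and 318 CPM. Slow-fibre markers (4 of 7 in the table) had medians of 973 and 1953 CPM in saline and 3605 and 2956 CPM in monocrotaline rats, and adipocyte markers (2 of 5) 10.5 and 41.7 against 9.37 and 10.00 CPM. edgeR called no gene of these 4 lists as a DEG between monocrotaline and saline rats. At an unadjusted p under 0.05 it had 2 of 5 fibroblast and 3 of 3 blood genes in Ex vs. CC-Ex. There DESeq2 called 2 fibroblast genes and limma-voom 1 fibroblast and 3 blood genes. The study itself reported slow-fibre genes as DEGs in sedentary rats and hemoglobin genes in both comparisons. At the same unadjusted p, edgeR had 2 of 4 endothelial genes in Sed vs. CC-Sed and 1 in Ex vs. CC-Ex. Nerve and Schwann markers had 2 of 2 in Ex vs. CC-Ex, and none of these genes was a DEG. Their part in the results was not tested. In whole muscle, fewer cells of a type and less RNA per cell cannot be told apart.

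**Figure D1:**
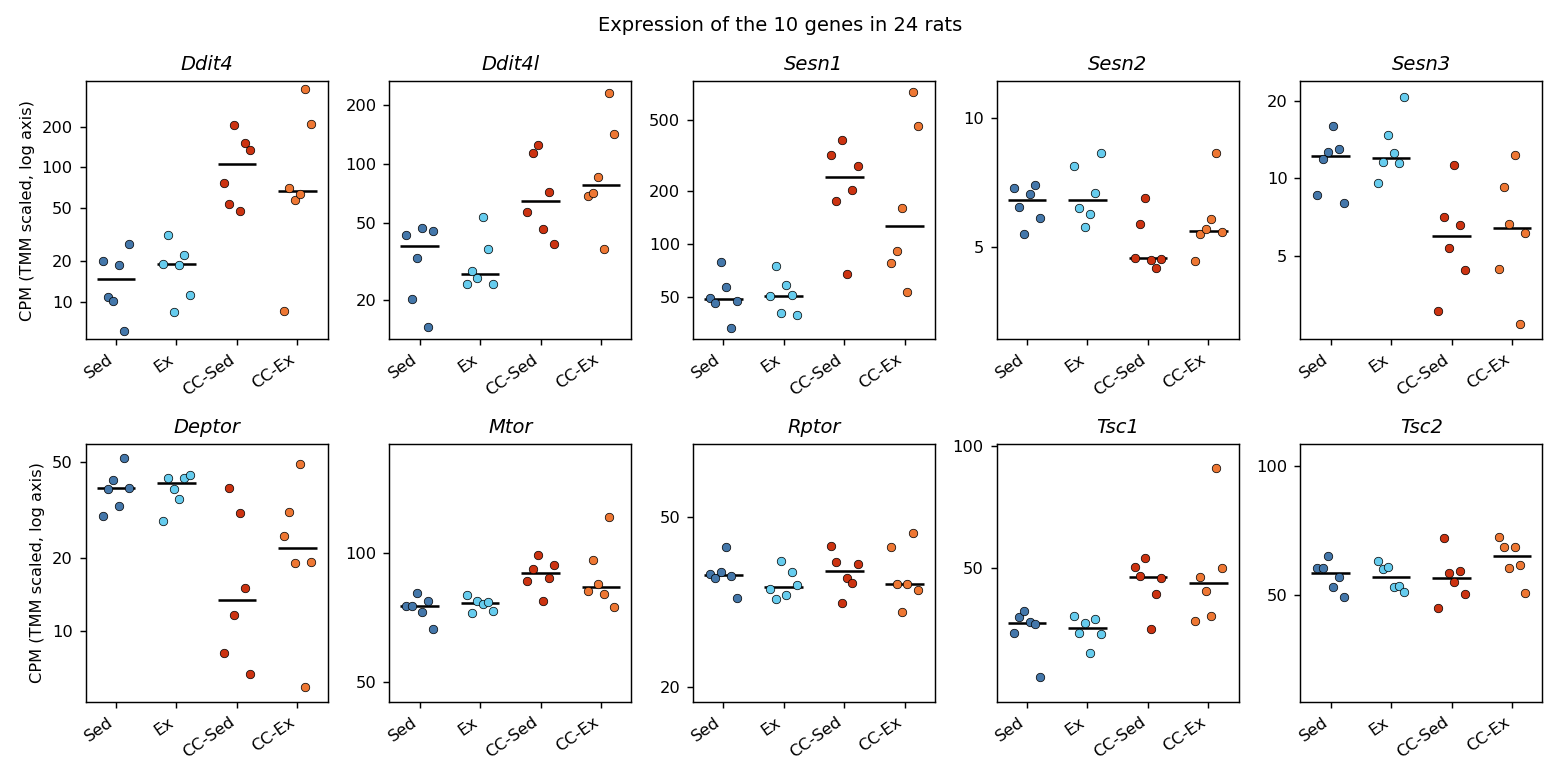
Levels of the 10 genes in each of 24 rats, in TMM-scaled CPM on a log axis with its own range for each gene; each point is a rat (6 per group) and the line is the group median. Ddit4 was above the highest saline value of 31.3 CPM in 11 of 12 monocrotaline rats, whereas Rptor and Tsc2 overlapped in all groups.

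The Ddit4 gene (ENSRNOG00000057078) had the widest spread of levels among the 10. In Sed rats its level was 20.0, 10.9, 10.0, 18.8, 6.05 and 26.6 CPM, and in Ex rats 19.1, 31.3, 8.41, 18.7, 22.4 and 11.2 CPM. In CC-Sed rats it was 76.6, 52.9, 206, 46.8, 150.2 and 135 CPM, and in CC-Ex rats 8.54, 70.3, 56.7, 62.9, 381 and 210.4 CPM. All 6 CC-Sed rats lay above the highest Sed rat, as in 2.32% of all genes, and 5 of 6 CC-Ex rats lay above the highest Ex rat. CC-Ex replicate 1 lay within the saline range, so levels in CC-Ex spanned 44.6-fold against 4.4-fold in CC-Sed. Group means ± SD (n = 6) ran from 15.4 ± 7.68 CPM in Sed and 18.5 ± 8.19 in Ex to 111 ± 63 in CC-Sed and 132 ± 140 in CC-Ex. In that order the neighbours Sed and Ex, and CC-Sed and CC-Ex, did not differ beyond their spread. Log2FC was 2.85 ± 0.62 (SE) for Sed vs. CC-Sed and 2.83 ± 0.62 for Ex vs. CC-Ex, and 2.13 for Ex vs. CC-Ex without CC-Ex replicate 5.

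Ddit4l (ENSRNOG00000010047), the paralog of Ddit4 that is expressed chiefly in skeletal muscle, overlapped between groups. Its level was 43.3, 20.2, 32.8, 46.8, 14.6 and 45.2 CPM in Sed rats and 24.2, 28.3, 26.0, 53.7, 36.6 and 24.2 CPM in Ex rats. It was 57, 114, 125, 46.5, 71.9 and 39 CPM in CC-Sed rats and 68.8, 71.3, 85.3, 36.5, 231 and 142 CPM in CC-Ex rats. The highest saline rat was exceeded by 9 of 12 monocrotaline rats, 4 of 6 CC-Sed rats lay above the highest Sed rat, and 5 of 6 CC-Ex rats lay above the highest Ex rat. Log2FC was 1.16 ± 0.39 (SE) for Sed vs. CC-Sed and 1.72 ± 0.39 for Ex vs. CC-Ex, and 1.32 for the latter without CC-Ex replicate 5.

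The 3 sestrins, stress-induced proteins that report leucine shortage and oxidative stress to mTOR complex 1, did not go in a common direction. Sesn1 (ENSRNOG00000000302), a gene known as a target of p53 and FoxO factors, was 49.2, 46.3, 79.2, 56.9, 33.2 and 47.7 CPM in Sed rats and 50.4, 74.9, 40.6, 58.4, 51.2 and 39.8 CPM in Ex rats. It was 316, 175, 387, 67.8, 201 and 276 CPM in CC-Sed rats and 77.8, 91.3, 159, 53.2, 724 and 462 CPM in CC-Ex rats. In each CC group 5 of 6 rats lay above the highest saline rat of the same activity, and the exception was replicate 4 in both. Log2FC was 2.19 ± 0.51 (SE) for Sed vs. CC-Sed and 2.31 ± 0.51 for Ex vs. CC-Ex, and 1.67 for the latter without CC-Ex replicate 5.

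Sesn3, also known as a FoxO target, was lower in most monocrotaline rats. Its level was 8.6, 11.9, 12.7, 16.1, 13.0 and 8.03 CPM in Sed rats and 9.65, 11.5, 14.8, 12.5, 11.5 and 20.8 CPM in Ex rats. It was 3.04, 7.05, 5.37, 11.3, 6.62 and 4.41 CPM in CC-Sed rats and 4.42, 9.28, 6.63, 12.4, 2.72 and 6.14 CPM in CC-Ex rats. Below the lowest of the 12 saline rats were 9 of 12 monocrotaline rats, and replicate 4 of each CC group had the highest level of its group. Log2FC was -0.90 ± 0.31 (SE) in Sed vs. CC-Sed and -0.96 ± 0.31 in Ex vs. CC-Ex. Sesn2, a leucine-binding sestrin that ATF4 is known to induce, had a narrow range, from 4.48 to 8.30 CPM over all rats. Its median was 6.43 CPM in saline and 5.39 CPM in monocrotaline rats, and its Log2FC was -0.31 in Sed vs. CC-Sed and -0.21 in Ex vs. CC-Ex, and -0.35 for the latter without CC-Ex replicate 5.

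Deptor, which binds and inhibits mTOR and is itself degraded when mTOR is active, was lower in most monocrotaline rats. Its level was 29.8, 38.6, 41.8, 32.7, 51.5 and 38.9 CPM in Sed and 28.4, 42.9, 38.5, 34.9, 42.7 and 43.8 CPM in Ex. It was 8.06, 39, 11.6, 30.7, 15.0 and 6.63 CPM in CC-Sed and 24.5, 31.0, 19.0, 48.7, 5.84 and 19.3 CPM in CC-Ex. In both CC groups 4 of 6 rats lay below the lowest saline rat of the same activity. Levels spanned 1.81-fold over the 12 saline rats and 8.33-fold over the 12 monocrotaline rats. Log2FC was -1.07 ± 0.39 (SE) for Sed vs. CC-Sed and -0.64 ± 0.39 for Ex vs. CC-Ex, and -0.44 for the latter without CC-Ex replicate 5.

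The kinase and its direct partners differed less. Mtor lay between 66.6 and 80.6 CPM in saline rats and between 74.8 and 122 CPM in monocrotaline rats, of which 9 of 12 lay above the highest saline rat. Its Log2FC was 0.26 in Sed vs. CC-Sed and 0.24 in Ex vs. CC-Ex, and 0.13 for the latter without CC-Ex replicate 5. Tsc1, the stabilising subunit of the suppressor complex, lay between 27.0 and 39.3 CPM in saline rats and between 35.4 and 88.1 CPM in monocrotaline rats, also with 9 of 12 above the highest saline rat. Its Log2FC was 0.39 ± 0.16 (SE) in Sed vs. CC-Sed and 0.52 ± 0.16 in Ex vs. CC-Ex, and 0.28 for the latter without CC-Ex replicate 5. Tsc2, the subunit that acts on Rheb, lay between 49.7 and 61.8 CPM in saline rats and between 46.6 and 68.4 CPM in monocrotaline rats, and Rptor between 32.2 and 42.5 CPM and between 29.9 and 45.7 CPM. The groups of both genes overlapped, with Log2FC between -0.01 and 0.14. The value for Rptor in Ex vs. CC-Ex, 0.08, was -0.01 without CC-Ex replicate 5.

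**Figure D2:**
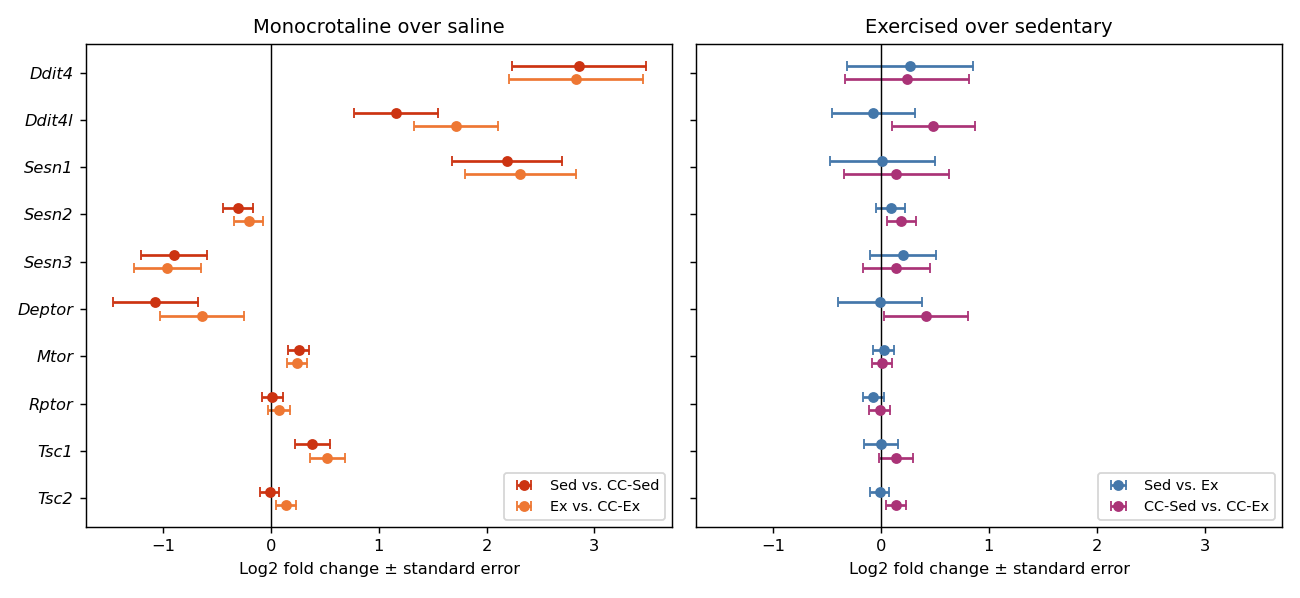
Log2FC of the 10 genes ± SE from the edgeR model of 24 rats (6 per group), monocrotaline over saline on the left and exercised over sedentary on the right, on the same axis. On the left, Ddit4 was at 2.85 and 2.83 and Deptor at -1.07 and -0.64; on the right the values lay between -0.07 and 0.49.

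Among the 10 genes, 2 met the DEG criteria (Benjamini-Hochberg adjusted p under 0.05 and Log2FC of at least 1 in size) in Sed vs. CC-Sed, Ddit4 and Sesn1, where 1.87% of all genes did. In Ex vs. CC-Ex 3 met them, Ddit4, Ddit4l and Sesn1, where 0.525% of all genes did. Nothing is read from these counts, because the choice of genes used this contrast. Just outside the criteria in Sed vs. CC-Sed were Ddit4l and Deptor, which missed them through the adjusted p. Ddit4 and Sesn1 met them in Sed vs. CC-Sed without any single rat of the comparison (12 of 12 fits). Without CC-Sed replicate 4 the count was 5, where 3.72% of all genes were called, and without CC-Ex replicate 5 it was 4, with 3.12% called. In Ex vs. CC-Ex it was 0 without any single Ex rat or without CC-Ex replicate 5 or 6, where 2 or 3 of all genes were called. It was also 0 with upper-quartile scaling (0.184% of all genes) and in a fit of the 12 rats of the comparison alone (0.00922%), so the loss of calls ran through the whole table. limma-voom gave Log2FC of 1.66 for Ddit4 and 1.35 for Sesn1 in Ex vs. CC-Ex. The first 6 library numbers were all monocrotaline rats, and with the library number as a covariate Log2FC of Ddit4 was 3.06 in Sed vs. CC-Sed and 3.09 in Ex vs. CC-Ex. With that covariate Ddit4l no longer met the criteria in Ex vs. CC-Ex (Log2FC 1.83), and Ddit4 and Sesn1 did.

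Training had no detectable effect on any of the 10 genes. In Sed vs. Ex, Log2FC lay between -0.07 and 0.27 (Ddit4, 0.27 ± 0.58 SE), and in CC-Sed vs. CC-Ex between -0.01 and 0.49 (Ddit4l, 0.49 ± 0.38 SE). None was a DEG in edgeR's quasi-likelihood test, as was none of all 10851 genes (0% called). DESeq2 and limma-voom also called 0 genes in these contrasts. The lowest unadjusted p among the 10 genes was 0.471 for Rptor in Sed vs. Ex and 0.136 for Tsc2 in CC-Sed vs. CC-Ex. The difference between the monocrotaline effects in exercised and sedentary rats, the interaction, was -0.03 ± 0.82 (SE) for Ddit4, 0.13 ± 0.69 for Sesn1, 0.56 ± 0.54 for Ddit4l and 0.43 ± 0.55 for Deptor. Its lowest unadjusted p was 0.248, for Tsc2. No gene of the 10 had an unadjusted p under 0.05 in these 3 tests, where 1.09%, 2.16% and 1.42% of all genes did. With standard errors of this size, differences of 1 or more on the log2 scale in Ddit4 and Sesn1 could have gone undetected. The sign of the CC-Sed vs. CC-Ex difference in Ddit4 changed without CC-Ex replicate 5, to -0.43.

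Rats of the same group also differed from each other. How the 10 genes varied together among them was measured by the correlation of log2 CPM after the group means were removed, over 24 rats, with two-sided permutation tests within groups. Of 9 genes compared with Ddit4, Sesn1 followed it (r = 0.73, rho = 0.69, permutation p = 0.00233, adjusted over 9 to 0.021). Without CC-Ex replicates 5 and 6, the rats farthest from the median of Ddit4, r was 0.46 (permutation p = 0.06), so the call rests on those rats. Group by group, r was 0.27 (Sed), 0.91 (Ex), 0.73 (CC-Sed) and 0.78 (CC-Ex), each over 6 rats. Ddit4l had r = 0.57 (rho = 0.57, permutation p adjusted to 0.0844) and Deptor r = -0.53 (rho = -0.58, adjusted to 0.136). By rank the adjusted permutation p was 0.0306 for each.

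**Figure D3:**
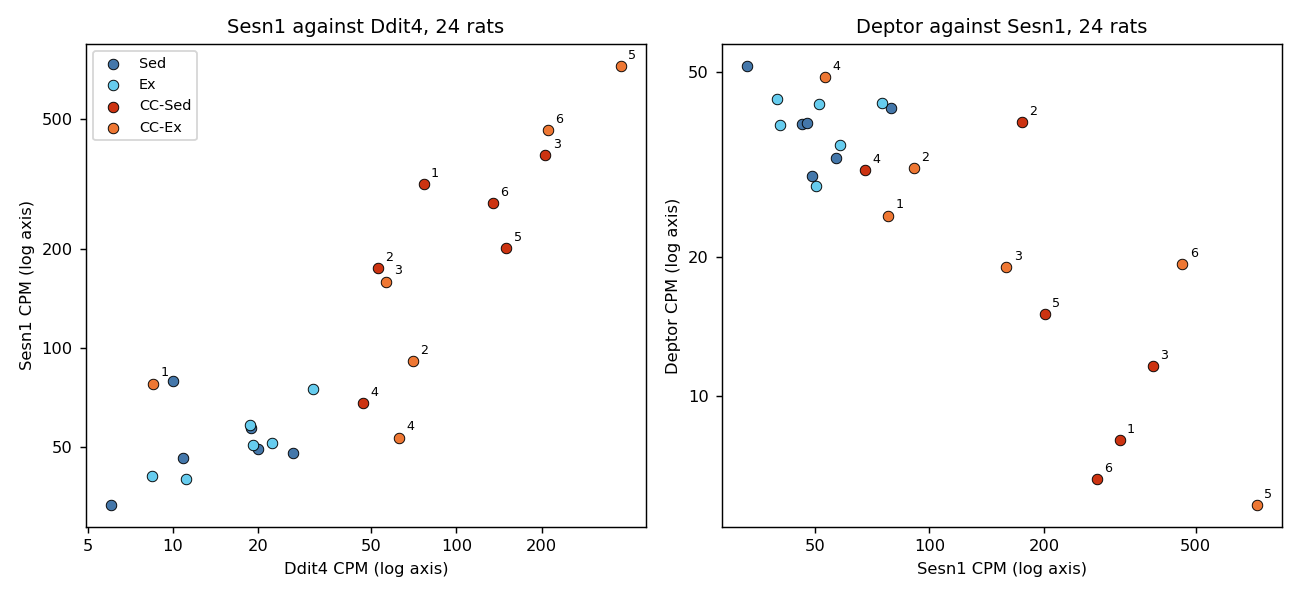
Sesn1 against Ddit4 (left) and Deptor against Sesn1 (right) in TMM-scaled CPM on log axes; each point is a rat, coloured by group, and numbers are replicates of the CC groups. The monocrotaline rat with the most Sesn1, CC-Ex replicate 5 at 724 CPM, also had the most Ddit4 (381 CPM) and the least Deptor (5.84 CPM).

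Over all 45 pairs of the 10 genes, a family added after the data were seen, 6 passed an adjusted permutation p under 0.05, and 5 of them were positive. Mtor and Tsc1 had r = 0.84 (rho = 0.69, permutation p adjusted to 0.0115), Sesn3 and Deptor r = 0.78 (rho = 0.63, adjusted to 0.0102), and Sesn1 and Tsc1 r = 0.77 (rho = 0.61, adjusted to 0.0102). Sesn1 and Ddit4l had r = 0.68 (rho = 0.63, permutation p adjusted to 0.0151), and Ddit4 with Sesn1 was the fifth. The negative pair was Sesn1 and Deptor (r = -0.76, rho = -0.74, permutation p adjusted to 0.0102). Group by group, its r was -0.36 (Sed), 0.0036 (Ex), -0.73 (CC-Sed) and -0.88 (CC-Ex), each over 6 rats. In the CC groups, rats with more Sesn1 than others of their group thus had less Deptor. Without the 2 rats farthest from the median of the first gene named, r was 0.57 for Mtor and Tsc1 and 0.64 for Sesn3 and Deptor. Likewise, r was 0.58 for Sesn1 and Tsc1, 0.55 for Ddit4l and Sesn1, and -0.67 for Sesn1 and Deptor.

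**Figure D4:**
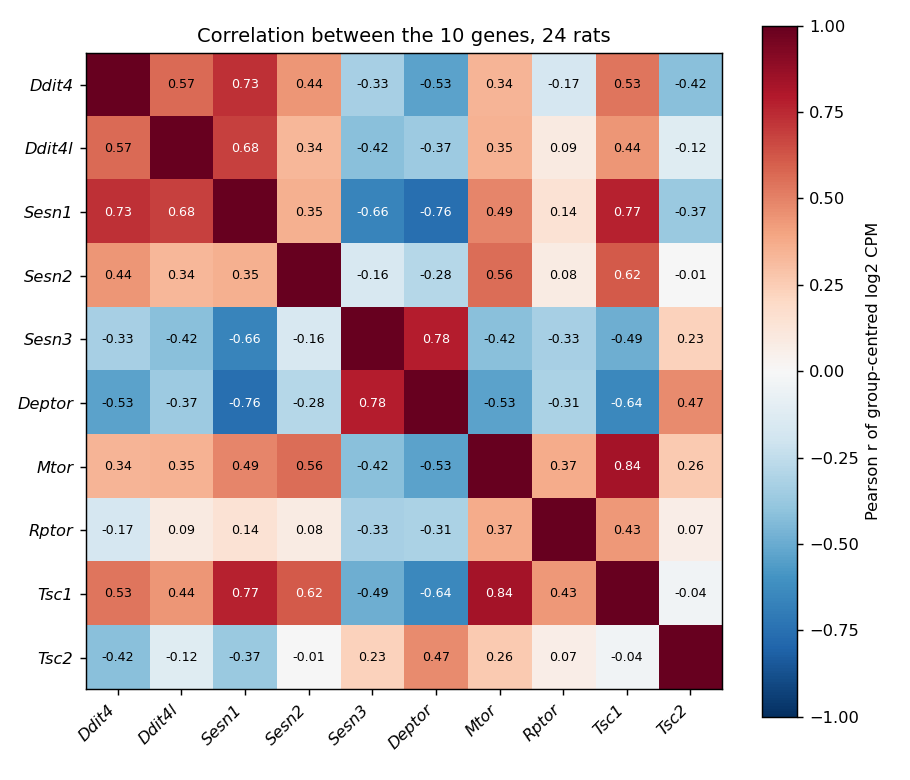
Pearson r of group-centred log2 CPM for the 45 pairs of the 10 genes over 24 rats, coloured from -1 (blue) to 1 (red). Ddit4, Ddit4l and Sesn1 had positive r with each other (0.57 to 0.73), and Sesn3 and Deptor formed a positive pair (0.78). Each of the former had a negative r with both of the latter, but of these pairs only Sesn1 and Deptor passed the adjusted permutation p. Ddit4 and Sesn3 had r = -0.33, and 0.14 with PC1 removed. Ddit4 and Ddit4l (0.57) did not pass.

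Values of r within each treatment, and with PC1 removed, varied from pair to pair, and differences between treatments were not tested. Sesn1 and Deptor had r = -0.21 in the 12 saline rats and -0.80 in the 12 monocrotaline rats, and Mtor and Tsc1 0.80 and 0.84. The group-centred r with PC1 was 0.86 for Tsc1, -0.82 for Deptor, 0.78 for Sesn1, 0.73 for Mtor, -0.69 for Sesn3, 0.60 for Ddit4 and 0.37 for Ddit4l. With PC1 removed, Sesn1 and Deptor had r = -0.32 and Sesn1 and Tsc1 0.29, whereas Sesn1 and Ddit4l had 0.68 and Mtor and Tsc1 0.59. Over the whole table, r exceeded 0.7 in size with 17.6% of genes for Deptor, with 8.47% for Sesn1 and with 0.544% for Ddit4.

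The genes most like Ddit4 between rats of a group were Gadd45g (r = 0.89), Cebpd (0.88), Tmem252 (0.83), Klf9 (0.83) and Pold4 (0.81), over 24 rats. Cebpd encodes a C/EBP transcription factor and Klf9 a glucocorticoid-inducible Krüppel-like factor. Sesn1 was most like Cir1 (r = 0.94), Foxo1 (0.92), Klf15 (0.92), Foxo3 (0.91) and Cdkn2aip (0.91), and Ddit4l most like Gigyf1 (0.81), Slc49a4 (0.79), Klhl38 (0.78), Gpr157 (0.75) and Ptprg (0.75). The lists had no gene in common. They are the 5 largest values of r among all genes and carry no test. By rank, Sesn1 had rho of 0.77 with Foxo1, 0.87 with Klf15 and 0.88 with Foxo3, and Ddit4 had 0.84 with Cebpd. Values for these lists without CC-Ex replicate 5 or with PC1 removed are not given.

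Other genes of the pathway were taken as 6 lists, of whose 96 genes 83 were analysed. In Sed vs. CC-Sed 12 rose and 1 fell as DEGs (15.7%, against 1.87% of all genes), in Ex vs. CC-Ex 7 rose and none fell (8.43%, against 0.525%), and in the training contrasts and the interaction edgeR called none, with none at an unadjusted p under 0.05. The median Log2FC of the 83 genes was 0.16 and 0.17 in the monocrotaline comparisons, and that of all genes 0.02 and 0.01. The lists were drawn up with earlier results of these data known, so nothing is read from their share against all genes, and the p-values of their genes are no independent support. Without a single Ex rat, or without CC-Ex replicate 5 or 6, the count in Ex vs. CC-Ex was 0, with 2 or 3 calls over all genes. Without CC-Ex replicate 4, CC-Ex replicate 1 or CC-Sed replicate 4 it was 16, 14 and 11, with 251, 201 and 109 calls over all genes. In Sed vs. CC-Sed it was 6 without Sed replicate 2 or CC-Sed replicate 6, 7 without Sed replicate 3, and 8 without Sed replicate 5 or CC-Sed replicate 1, with 73 to 116 calls over all genes.

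**Figure D5:**
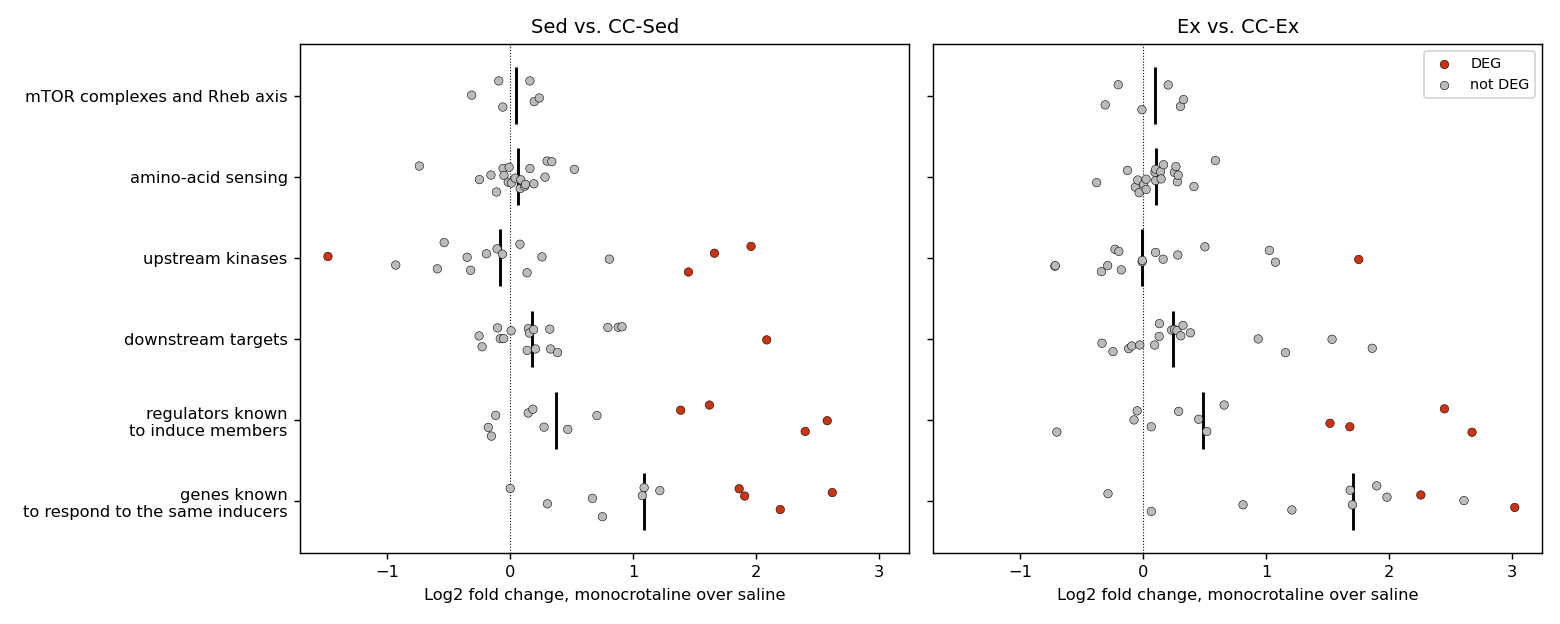
Log2FC of 83 pathway genes in 6 lists, monocrotaline over saline, in sedentary (left) and exercised (right) rats; each point is a gene, placed at random heights within its list, red where it was a DEG, and the black line is the list's median. No DEG was found among the mTOR complexes or the amino-acid sensing genes, and 4 of 12 regulators were DEGs in each comparison. Of all genes 1.87% (left) and 0.525% (right) were DEGs.

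No DEG was found in the remaining machinery of mTOR. Over all genes the share was 1.87% in Sed vs. CC-Sed and 0.525% in Ex vs. CC-Ex, so nothing is read from this in lists of 6 and 20 genes. Among 6 genes of the mTOR complexes and the Rheb axis, the median Log2FC was 0.05 in Sed vs. CC-Sed and 0.10 in Ex vs. CC-Ex. In each comparison 3 of the 6 were higher and 3 lower. Rheb, the activator, had Log2FC of 0.24 ± 0.15 (SE) and 0.33 ± 0.15, with edgeR adjusted p of 0.283 and 0.189. Mlst8 went the other way, with Log2FC of -0.31 in both and edgeR adjusted p of 0.0791 and 0.122. The 20 genes of amino-acid sensing (GATOR, Rag, Ragulator and folliculin proteins) also held none, with medians of 0.06 and 0.10.

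Upstream, 4 of 16 genes of the insulin and AMPK branches were DEGs in Sed vs. CC-Sed and 1 in Ex vs. CC-Ex. Pik3r1, the regulatory subunit of phosphatidylinositol 3-kinase, rose in both (Log2FC 1.66 and 1.75, edgeR adjusted p = 0.0162 and 0.0329). The receptor gene Igf1r rose from 2.75 ± 0.531 to 7.52 ± 3.35 CPM (SD, n = 6) in Sed vs. CC-Sed (edgeR adjusted p = 0.0307). The insulin receptor substrates went in opposite directions there. Irs2 rose from 23.9 ± 13.1 to 93 ± 85.3 CPM (edgeR adjusted p = 0.0416) and Irs1 fell from 65 ± 44.4 to 23.3 ± 19 CPM (edgeR adjusted p = 0.0479). In Ex vs. CC-Ex their Log2FC was 1.08 for Igf1r, 1.03 for Irs2 and -0.71 for Irs1, none of them a DEG, and no interaction was called. Insr, the insulin receptor, passed the adjusted p but not the fold criterion in Sed vs. CC-Sed (Log2FC 0.81, edgeR adjusted p = 0.0137). The adjusted p was passed there by 6.46% of all genes, DEGs included.

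Downstream, 1 of 18 targets was a DEG. Eif4ebp1, the translation repressor that mTOR complex 1 phosphorylates, was 38.9 ± 4.57 CPM in Sed and rose to 165 ± 102 CPM in CC-Sed (SD, n = 6, edgeR adjusted p = 0.0159). Exercised rats had 37.5 ± 7.05 CPM after saline and 137 ± 150 CPM after monocrotaline (edgeR adjusted p = 0.0525). Of the 18 targets 13 were higher and 5 lower in each comparison, with median Log2FC of 0.18 in Sed vs. CC-Sed and 0.24 in Ex vs. CC-Ex. Rps6kb1, the ribosomal S6 kinase gene, had Log2FC of -0.25 and -0.12, neither a DEG. Ulk1 had 0.91 and 1.16 (edgeR adjusted p = 0.0685 and 0.0603), also neither a DEG.

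Of 12 regulators listed as possible inducers of the inhibitors, the same 4 rose as DEGs in both comparisons, where 1.87% and 0.525% of all genes were DEGs. By sign alone, 9 of the 12 were higher and 3 lower in each comparison. Whether these regulators act on the inhibitors here was not tested. Cebpd had Log2FC of 2.58 in Sed vs. CC-Sed and 2.67 in Ex vs. CC-Ex (edgeR adjusted p = 0.0147 and 0.0329). The values were 2.40 and 2.45 for Foxo1 (edgeR adjusted p = 0.0138 and 0.0329), 1.62 and 1.52 for Foxo3 (0.0137 and 0.035), and 1.39 and 1.68 for Klf15 (0.0236 and 0.0325). Foxo1 and Foxo3 encode transcription factors that drive atrophy genes in muscle, and Klf15 is a target of the glucocorticoid receptor. The receptor gene itself, Nr3c1, had Log2FC of -0.12 and -0.07, and Atf4, the factor of the amino-acid response, 0.28 and 0.45, none of them a DEG. Cebpd, Foxo1, Klf15 and Foxo3 were also among the genes most like Ddit4 or Sesn1 between rats of a group.

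Of 11 genes listed as responding to the same inducers, 4 rose as DEGs in Sed vs. CC-Sed and 2 in Ex vs. CC-Ex. Over all genes the share of DEGs was 1.87% and 0.525%. By sign alone, all 11 were higher in Sed vs. CC-Sed, and 10 were higher and 1 lower in Ex vs. CC-Ex. Fbxo32, a muscle ubiquitin ligase, rose in both (Log2FC 2.62 and 3.02, edgeR adjusted p = 0.02 and 0.0329), as did the FoxO target Depp1 (1.86 and 2.26, edgeR adjusted p = 0.0189 and 0.0325). The study, in contrast, reported Fbxo32 as a DEG in the sedentary comparison only. Here its level in CC-Ex rats ran from 86.0 to 2755 CPM. Fkbp5, a glucocorticoid-induced co-chaperone, rose in Sed vs. CC-Sed (Log2FC 1.91, edgeR adjusted p = 0.0148) and had 1.70 in Ex vs. CC-Ex (edgeR adjusted p = 0.0517). The other DEG of Sed vs. CC-Sed was Trim63, a ubiquitin ligase named here after its values were seen (Log2FC 2.20, edgeR adjusted p = 0.0479). Trim63 had Log2FC of 2.61 in Ex vs. CC-Ex (edgeR adjusted p = 0.0529), not a DEG. The median Log2FC of the list was 1.09 and 1.70.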

How the data were processed

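RNA of the medial gastrocnemius of 24 rats was sequenced from poly-A-selected stranded libraries. The authors trimmed reads with Trim Galore, quantified them with Salmon on the Ensembl mRatBN7.2 transcriptome and summed transcripts to genes. The deposited table holds estimated counts as whole numbers, none below 10, so genes with lower counts were not analysed here. Groups and replicate numbers came from the sample labels, and no library repeated another (a chi-square of 28.1 or more for each degree of freedom). The replicates are separate animals.

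The analysis used edgeR 4.0.16 (R 4.3.3). TMM-scaled counts of all 24 rats entered a quasi-likelihood model of the 4 groups, all 10851 genes passed the expression filter, and p-values were adjusted by Benjamini-Hochberg over them. The study's criteria for a DEG were kept (adjusted p under 0.05, Log2FC of at least 1 in size). SE is the size of the Log2FC over the square root of F. Correlations used log2 CPM with a prior count of 2, group means removed, and 100000 permutations within groups (Python 3.11.15). The code was tested on simulated data.

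The 10 genes and the lists were chosen with earlier results of these data known. Named genes are the 10, up to 12 list genes called as DEG by smallest adjusted p, and the 5 genes most like Ddit4 and each other gene of the 10 called as DEG. Genes outside this rule that were added as context are Rheb, Mlst8, Insr, Rps6kb1, Ulk1, Nr3c1, Atf4 and Trim63, chosen after their values were seen. From the lists, 12 symbols were not analysed and Prkag1, on 2 rows, was left out. Alternatives were DESeq2 1.42.0, upper-quartile scaling, no filter, a mean of at least 1 CPM, the 12 rats of a comparison alone, a block on the replicate number, a covariate for library number, limma-voom with quality weights (limma 3.58.1), the adjusted p alone, another prior count of 0.5, Spearman's rho and each rat left out. Removal of PC1, the saline and monocrotaline rats alone, the 45 pairs and the motifs CCAAT and TATAAA were added after seeing the data. Promoters came from RefSeq (GRCr8), which is not the build of the count table.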

Additional observations from a re-analysis of the deposited data

Results flagged for a closer look

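Among 40 sets of values (10 genes in 4 groups of 6 rats), 3 held a rat whose gap to its nearest neighbour exceeded 0.625 of the group's range, and chance flags about 1 in 20. Tsc1 in CC-Ex replicate 5 was 88.1 CPM against 50.2 CPM in the next rat, a gap of 0.745 of the range. Sesn2 in the same rat was 8.30 CPM against 5.81 CPM (0.683 of the range). Tsc1 in Sed replicate 6 was 27.0 CPM against 34.8 CPM (0.633 of the range), the lowest of that group.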

How the results depend on the processing

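In both monocrotaline comparisons no gene called there changed sign under any alternative run, but the Log2FC of Rptor and Tsc2, near 0, did (-0.0507 to 0.0597 for Rptor and -0.0785 to 0.0201 for Tsc2 in Sed vs. CC-Sed with a rat left out). The number of the 10 genes called in Sed vs. CC-Sed was 4 by DESeq2 and 5 by limma-voom, which called 318 and 383 of all genes against 203 by edgeR, and 2 to 5 with a rat left out. In Ex vs. CC-Ex it was 0 with upper-quartile scaling, with the 12 rats alone and with the replicate block, and 0 to 4 with a rat left out. Pathway calls in Sed vs. CC-Sed ran from 6 to 13 with a rat left out. In Ex vs. CC-Ex they numbered 14 by DESeq2 (214 of all genes), 3 with upper-quartile scaling, 0 with the 12 rats alone, 0 with the replicate block, and 0 to 16 with a rat left out. Over all genes upper-quartile scaling called 20 there, and the 12 rats alone and the replicate block 1 each, against 57 by edgeR. The cause was not tested. Genes correlated with Ddit4 numbered 3 by rank, 5 with the replicate block, 0 without the 2 farthest rats, 0 with PC1 removed, 0 in the 12 saline rats (r = 0.54 with Sesn1), 0 in the 12 monocrotaline rats (r = 0.77 with Sesn1), and 0 to 4 with a rat left out. Replicate numbers did not pair the rats: same-numbered rats had mean correlations from -0.23 to 0.0947, and at most 4 of 6 pairs exceeded 0.1.

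The other changes of sign were in the training contrasts and the interaction, where no gene was called. In Sed vs. Ex, Deptor was 0.0489 by limma-voom, and Tsc1 -0.00291 by DESeq2, -0.000626 with the 12 rats alone, -0.0019 with the replicate block and -0.00608 by limma-voom. In CC-Sed vs. CC-Ex, the replicate block gave -0.0578 for Ddit4, -0.0808 for Sesn1 and -0.000347 for Mtor, limma-voom gave -0.88, -0.70 and -0.0814 for them and -0.0562 for Tsc1, and DESeq2 gave 0.00594 for Rptor. In the interaction, the library covariate gave 0.0355 for Ddit4 and 0.0167 for Sesn3, the replicate block -0.12 for Sesn1, DESeq2 0.00674 for Mtor, and limma-voom -0.76 for Sesn1, -0.00234 for Sesn2, 0.21 for Sesn3 and -0.0501 for Tsc1.

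With a rat left out, Sed vs. Ex ranged from -0.28 to 0.0436 for Ddit4l, -0.12 to 0.17 for Sesn1, -0.0791 to 0.0836 for Deptor, -0.00578 to 0.0483 for Mtor, -0.0658 to 0.0372 for Tsc1 and -0.0431 to 0.0193 for Tsc2. CC-Sed vs. CC-Ex ranged from -0.43 to 0.51 for Ddit4, -0.47 to 0.35 for Sesn1, -0.10 to 0.39 for Sesn3, -0.0800 to 0.0573 for Mtor, -0.0656 to 0.0416 for Rptor and -0.0722 to 0.22 for Tsc1. The interaction ranged from -0.70 to 0.24 for Ddit4, -0.48 to 0.34 for Sesn1, -0.0148 to 0.18 for Sesn2, -0.31 to 0.19 for Sesn3, -0.11 to 0.0322 for Mtor and -0.0739 to 0.21 for Tsc1. What depth limits was not tested.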
